A study of Mus musculus with 18 samples.

Results

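The eosinophil and basophil lineage of mouse bone marrow (BM) was described from the cells to which the authors had given a cluster code beginning with Eos or Bas in the Lin-Kit+ hematopoietic progenitor (HP) libraries, restricted to cells with at least 1000 unique molecular identifiers (UMIs, each 1 captured transcript molecule). These were 1407 of the 20982 HP cells, and of the 56201 cells of all kinds in the series. The codes carried 1414 cells in all, and 7 fell under the minimum, the deepest at 950 and 904 UMIs, while the shallowest cells kept had 1014 and 1097. There were 7 codes in 5 libraries. Eos/Bas1 came from 2 libraries at embryonic day (E) 16.5, Eos/Bas2 and Bas1 from E18.5, Bas2, Eos/Bas3 and EosP from postnatal day 0 (P0), and Eos/Bas4 from adult mice, so no code was shared by 2 stages.

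The study profiled BM across fetal and neonatal ontogeny with droplet single-cell RNA sequencing and antibody tags (CITE-Seq), to follow how its progenitors and stroma are established. The mice were of strain C57B6/J, without a gene deletion or a drug, at E16.5, E18.5, P0 and an adult age that the labels do not specify. Cells of several animals were pooled in a library, and E18.5, P0 and adult HPs are 1 library each. Variation between animals was therefore not measured, differences between stages were not tested, and the intervals given are 95% intervals for counting error only (exact Poisson for levels, Clopper-Pearson for shares). The gate for Kit, the stem cell factor receptor, keeps immature granulocytes and removes most mature ones, so the cells are a selected part of each lineage.

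Eosinophils and basophils are the rarest granulocytes and arise in BM from progenitors that use GATA factors together with C/EBP factors. Eosinophils pack their granules with major basic protein (Prg2), eosinophil peroxidase (Epx) and ribonucleases of the Ear family, respond to IL-5 through Il5ra, and need C/EBP epsilon (Cebpe) to mature. Basophils express the serine proteases Mcpt8 and Prss34, bind IgE through a receptor built from Fcer1a, Ms4a2 and Fcer1g, and are a source of IL-4. Mast cells share the IgE receptor and Cpa3 with basophils but make chymases and tryptases such as Cma1 and Tpsb2.

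The HP libraries held from 544 cells of at least 1000 UMIs in the first E16.5 library to 5951 at P0, with a median of 6747 UMIs per cell in the adult and 23291.5 in the first E16.5 library. Cell barcodes recurred between libraries. In the first E16.5 library 59.6% of HP cells had a barcode that also occurred in another library of the series, HP or stromal. The share was 1.6% in the second, 12.2% of the E18.5 cells, 5.06% of the P0 cells and 13.2% of the adult cells. Of the 1407 lineage cells 71 were affected, including 10 of the 18 cells of the first E16.5 library and 37 of the 156 Eos/Bas2 cells. For 49 of the 71 the partner lay in the adult HP library, and 45 of these partners carried the adult code MyP4, with a median of 480 UMIs. Counts of genes past a fold are given without the affected cells for comparisons of Eos/Bas1 and Eos/Bas2, the codes these cells touched most.

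At E16.5 the lineage was a small part of the HPs, at E18.5 and P0 it was a large part, and in the adult it was small again. It made up 18 of 544 cells (3.31%, interval 1.97 to 5.18) in the first E16.5 library and 79 of 4733 (1.67%, 1.32 to 2.08) in the second. It made up 429 of 2520 cells at E18.5 (17.0%, 15.6 to 18.5) and 706 of 5951 at P0 (11.9%, 11.1 to 12.7). In the adult it was 175 of 4968 (3.52%, 3.03 to 4.07). The intervals of E18.5 and P0 lay above those of the other libraries, and those of the 2 E16.5 libraries overlapped. The E18.5 share depended on the UMI minimum, since many shallow E18.5 cells carry other codes, and over all deposited HP cells it was 12.4%. Counting cells of any code with at least 2 UMIs of Mcpt8 or Prg2 gave 17.7% for E18.5 and 14.9% for P0. It gave 7.37% for E16.5, which stood at 1.84% by the codes, and 4.95% for the adult, so that the order of these 2 turned. At E16.5 this count can take in mast cells. Their codes Mast1, Mast2i and Mast2ii held 16.3%, 19.2% and 19.2% of the Mcpt8 UMIs of the second library. The cut was also not adjusted for depth, with medians of 19236.5 UMIs per HP cell at E16.5 and 6747 in the adult.

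Within a stage the codes were of unequal size. At E18.5, Bas1 held 273 cells (63.6% of the lineage there) and Eos/Bas2 held 156 (36.4%). At P0, Bas2 held 520 cells (73.7%), EosP 106 (15.0%) and Eos/Bas3 80 (11.3%). Their depth differed as well, from a median of 5040 UMIs per cell in Eos/Bas3 and 6577 in Bas1 to 22024.5 in Bas2 and 36139 in Eos/Bas2. Levels are therefore given as CPM, the UMIs of a gene over all UMIs of the cells of a code, scaled to 1000000, and shares of cells are given after thinning each cell to 1000 UMIs.

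**Figure D1:**
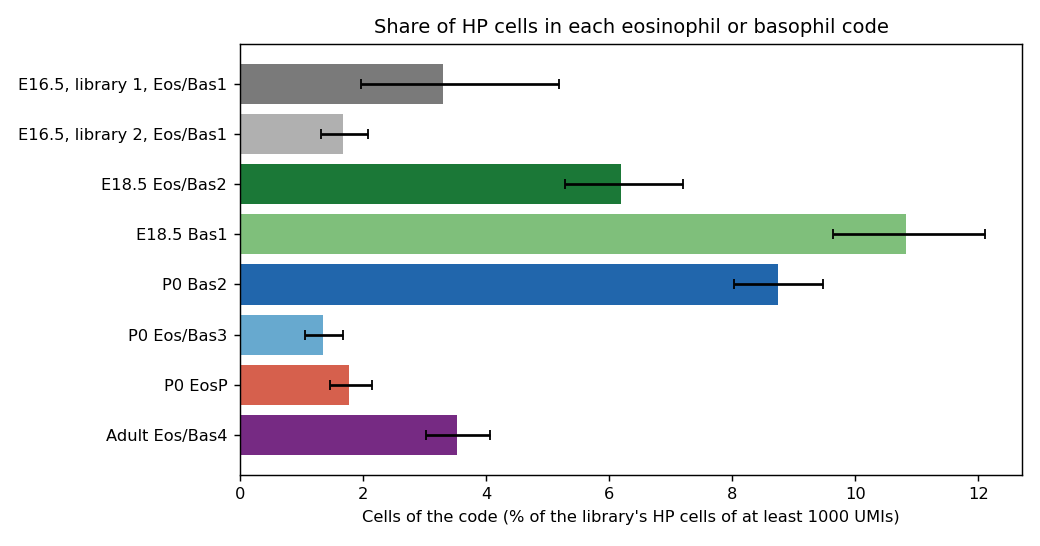
Share of each code among the HP cells of its library with at least 1000 UMIs, in percent, one bar per library and code, with 95% Clopper-Pearson intervals as error bars. Bas1 at E18.5 (10.8%) and Bas2 at P0 (8.74%) were the largest shares, and Eos/Bas3 at P0 (1.34%) the smallest.

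The codes fell into different cell cycle states by the phase the authors had assigned to each cell. In Eos/Bas2 2.56% of cells, in Bas2 8.46% and in EosP 11.3% were called G1. In Bas1 95.2% and in Eos/Bas3 72.5% were called G1, and Eos/Bas4 lay between them at 37.7%. The 2 E16.5 libraries gave 66.7% and 68.4%. Mki67 and Top2a, which are transcribed in dividing cells, gave the same order at E18.5, with 328 and 491 CPM in Eos/Bas2 against 47.8 and 43.0 CPM in Bas1. The authors had inferred the phases from published marker genes of S and G2M. Whether these 2 genes are among them was not checked, so their order is no separate support for the phase calls. At P0 Mki67 stood at 251 CPM in Bas2, 184 CPM in Eos/Bas3 and 161 CPM in EosP, and Top2a at 399 CPM in Bas2, 227 CPM in Eos/Bas3 and 309 CPM in EosP. In cells thinned to 1000 UMIs each, a Mki67 UMI was found in 99 of 520 Bas2 cells, 5 of 80 Eos/Bas3 cells (6.25%) and 12 of 106 EosP cells (11.3%), so that the order of Eos/Bas3 and EosP in Mki67 depended on the measure. Phase calls depend on depth, Bas1 and Eos/Bas3 were also the shallowest codes, and the part of depth in the phase calls was not tested.

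The eosinophil granule genes were high in 3 codes and low in the others. Prg2, which encodes major basic protein, was not detected in the 18 and 79 Eos/Bas1 cells of the 2 E16.5 libraries, which allows levels of up to 9.01 and 2.79 CPM (3 counts of the total). It stood at 2903 CPM (2858 to 2947) in Eos/Bas2 and 9.13 CPM (5.32 to 14.6) in Bas1. At P0 it stood at 22.7 CPM (20.1 to 25.6) in Bas2, 13.3 CPM (6.07 to 25.2) in Eos/Bas3 and 17170.4 CPM (16982 to 17360.2) in EosP, and in adult Eos/Bas4 at 4013 CPM (3915 to 4113). EosP, Eos/Bas4 and Eos/Bas2 were the high codes, in that order. Their intervals lay apart but cover counting error only, not the spread between cells. Without the cells whose barcodes recurred, Eos/Bas2 stood at 4339.6 CPM, which turns its order with Eos/Bas4. The codes named Bcell (Bcell1 up to P0, with BCell2 at P0, and Bcell3 and Bcell4 in the adult), which should lack the gene, held 0 CPM in both E16.5 libraries, then 120.4, 6.74 and 28.5 CPM at the 3 later stages. The E18.5 value lay above that of Bas1, with 1 Bcell1 cell of at least 20 Prg2 UMIs, and the P0 value lay below those of Bas2, which held 4 cells of at least 20 Prg2 UMIs, and Eos/Bas3.

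The other granule genes had the same distribution. Prg3, a second major basic protein, stood at 681 CPM in Eos/Bas2, 2790.1 CPM in EosP and 395 CPM in Eos/Bas4, and at most at 9.55 CPM in the other codes. Epx stood at 222, 1090.4 and 302 CPM in the same 3 codes and at most at 5.06 CPM elsewhere. Prg2, Prg3 and Epx together gave no UMI among the 1406849 UMIs of the 97 E16.5 cells, an upper limit of 2.13 CPM. The eosinophil ribonucleases were less evenly shared between stages. Ear1 was at 467 CPM in EosP, 55.1 CPM in Eos/Bas2 and 17.0 CPM in Eos/Bas4, and Ear6 at 179, 57.3 and 3.15 CPM. Ear1, Ear2 and Ear6 belong to a family of near-identical paralogs, and reads they share cannot be assigned with certainty.

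**Figure D2:**
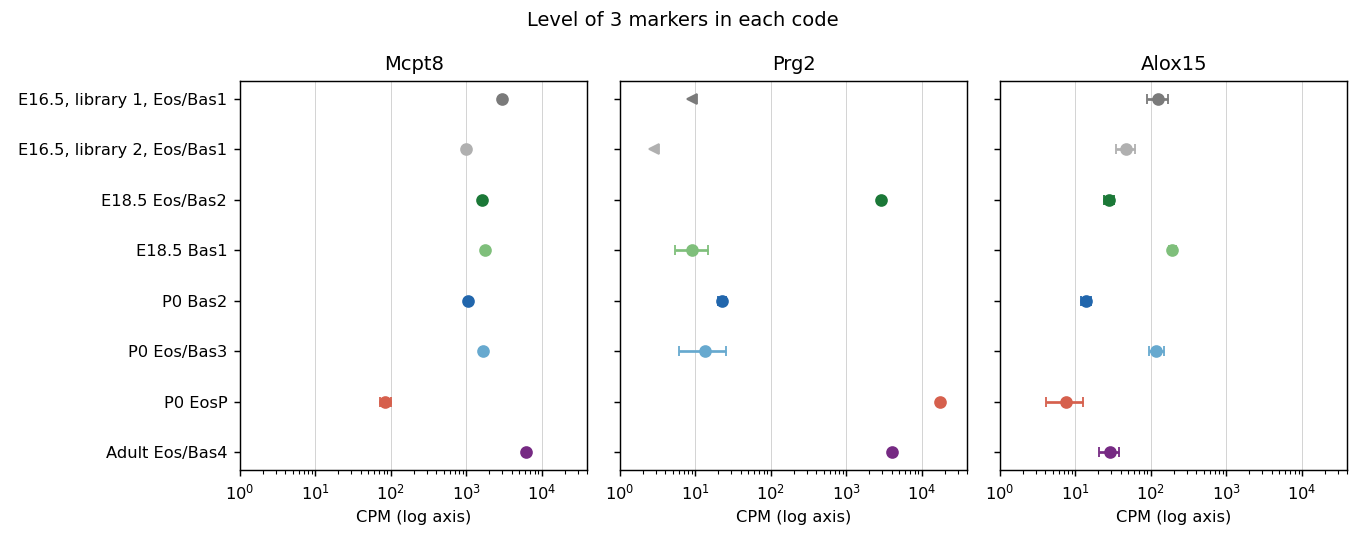
Level of the 3 markers Mcpt8, Prg2 and Alox15 in each library and code, in CPM on a log axis, with 95% exact Poisson intervals. Left-pointing triangles mark the limit of 3 counts for a code with no UMI. Prg2 was high in EosP, Eos/Bas4 and Eos/Bas2, Mcpt8 was high in every code but EosP, and Alox15 was lowest in EosP.

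EosP was highest in Prg3 and Epx and lowest in Mcpt8, and the 250 bases upstream of the start sites of these genes and of Prss34, another basophil protease, are printed for comparison. They were taken from RefSeq sequence on build GRCm38.p6, which the table of promoters held for 4 of 7 genes looked up. Capitals mark the core of motifs that the factors of this lineage are known to bind, on either strand: GATAA for GATA factors, TTGCNNAA for C/EBP factors, GAGGAA for PU.1 and TGTGGT for RUNX factors. The Prg3 window is chr2:84987965-84988214 on the plus strand and the Epx window chr11:87875537-87875786 on the minus strand.
Prg3: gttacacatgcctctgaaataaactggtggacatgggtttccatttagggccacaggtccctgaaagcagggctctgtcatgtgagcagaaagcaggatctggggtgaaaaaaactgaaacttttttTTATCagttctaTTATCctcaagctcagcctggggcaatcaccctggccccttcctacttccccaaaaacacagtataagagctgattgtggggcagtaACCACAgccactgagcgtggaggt
Epx: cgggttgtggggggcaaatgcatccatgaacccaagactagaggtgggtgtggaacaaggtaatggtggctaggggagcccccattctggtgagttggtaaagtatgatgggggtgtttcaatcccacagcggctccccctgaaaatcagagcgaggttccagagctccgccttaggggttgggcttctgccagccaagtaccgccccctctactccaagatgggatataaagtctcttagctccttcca
The Mcpt8 window is chr14:56085198-56085447 on the minus strand and the Prss34 window chr17:25298144-25298393 on the plus strand.
Mcpt8: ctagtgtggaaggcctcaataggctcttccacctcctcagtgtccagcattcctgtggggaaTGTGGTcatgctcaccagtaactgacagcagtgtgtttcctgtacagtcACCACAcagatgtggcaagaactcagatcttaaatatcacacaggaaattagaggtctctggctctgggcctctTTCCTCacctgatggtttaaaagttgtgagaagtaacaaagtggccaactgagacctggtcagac
Prss34: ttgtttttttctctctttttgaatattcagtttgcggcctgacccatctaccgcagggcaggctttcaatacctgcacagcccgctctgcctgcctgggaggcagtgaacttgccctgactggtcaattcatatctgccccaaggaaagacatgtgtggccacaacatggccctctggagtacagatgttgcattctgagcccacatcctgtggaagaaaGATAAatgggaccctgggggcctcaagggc

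The Prg3 window held GATAA 2 times and TGTGGT 1 time, all on the minus strand of the gene and GATAA within 123 bases of the start, and the Epx window held none of the 4. The Mcpt8 window held TGTGGT 2 times and GAGGAA 1 time but no GATAA. The Prss34 window held GATAA 1 time, 30 bases before the start. None held TTGCNNAA. Short motifs are common: of 32851 windows of the same length in the table, 22.6% held GATAA, 23.3% GAGGAA, 14.0% TGTGGT and 9.56% TTGCNNAA. The letters therefore describe these windows and do not identify sites in use.

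The factors and receptors of the eosinophil programme did not all go with the granule genes. Cebpe, the C/EBP factor of late granulocyte maturation, did: it stood at 144 CPM in Eos/Bas2, 641 CPM in EosP and 103 CPM in Eos/Bas4, against 0 and 0.931 CPM at E16.5 and at most 17.6 CPM in the other codes. Il5ra was at 63.7 CPM in EosP, 12.1 CPM in Eos/Bas2 and 10.7 CPM in Eos/Bas4, and at most at 5.37 CPM elsewhere. Siglecf, a sialic acid receptor used to gate mature eosinophils, was detected in every code and was highest in Bas1 (92.4 CPM) and EosP (82.6 CPM). Ccr3, the eotaxin receptor, was not detected in EosP, which allows up to 1.62 CPM, and was highest in Bas1 (63.9 CPM). Gata1 lay between 25.8 and 90.1 CPM in all codes.

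Alox15, the 12/15-lipoxygenase that mature eosinophils are known for, did not mark the cells with granule transcripts. It stood at 123 and 46.6 CPM in the E16.5 libraries, 28.0 CPM in Eos/Bas2, 193 CPM in Bas1, 13.8 CPM in Bas2, 118 CPM in Eos/Bas3, 7.56 CPM in EosP and 28.3 CPM in Eos/Bas4. Bas1 and Eos/Bas3 were high together with the first E16.5 library, and EosP was the lowest. In the 14 and 31 cells of Eos/Bas4 and Eos/Bas2 that held eosinophil granule transcripts (defined below), no Alox15 UMI was seen, which allows levels of up to 17.1 and 3.23 CPM. Outside the lineage the transcript was rare, and the codes held between 70.4% and 100% of the Alox15 UMIs of each library.

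Mcpt8, a serine protease of basophils, was high in every code but EosP. It stood at 2993 CPM (2809.8 to 3184) and 998 CPM (939.5 to 1060.0) in the 2 E16.5 libraries, 1615 CPM (1582 to 1649) in Eos/Bas2, 1769 CPM (1709 to 1831) in Bas1, 1039 CPM (1021 to 1057) in Bas2 and 1662 CPM (1567 to 1762) in Eos/Bas3. EosP held 84.7 CPM (72.0 to 99.1) and Eos/Bas4 6195 CPM (6073 to 6319). The adult code was highest and EosP lowest, and the intervals of the second E16.5 library and Bas2 overlapped, as did those of Eos/Bas3 with Eos/Bas2 and with Bas1. The Bcell codes of a library together held at most 9.89 CPM. Both E16.5 libraries together gave 1471 CPM, and 1051 CPM without the cells whose barcodes recurred; Eos/Bas2 gave 2078 CPM without them. As a mean over single cells, Eos/Bas2 reached 2386 CPM and Bas1 1355 CPM, which turns their order.

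The other basophil markers did not all follow Mcpt8. Prss34, a tryptase-like basophil protease, stood at 7594 CPM in Eos/Bas4, 1505 CPM in Eos/Bas2, 1284 CPM in Bas2, 896 CPM in Eos/Bas3, 609.9 CPM in Bas1 and 112 CPM in EosP. In both E16.5 libraries it was at 834 and 267 CPM, but mast cell codes there held 864 and 1118 CPM, so it was not particular to the lineage at that stage. Later mast cell codes held it too, over all their deposited cells. At E18.5 Mast3 held 65.0 CPM and a code named Mast/Bas 645 CPM (16 UMIs). At P0 Mast3 held 135 CPM and Mast4 353 CPM, and in the adult Mast4i held 760 CPM and Mast4ii 239 CPM. Cd200r3, an activating receptor of basophils and mast cells, was highest in Bas1 (895 CPM), the first E16.5 library (639 CPM) and Eos/Bas3 (525 CPM), and lower in Eos/Bas4 (128 CPM), Eos/Bas2 (121 CPM) and Bas2 (74.2 CPM). Csrp3, a LIM domain protein, ran largely the other way, with 340.0 CPM in Eos/Bas4, 208 CPM in Bas2, 107 CPM in Eos/Bas2, 41.3 CPM in Eos/Bas3 and 25.2 CPM in Bas1.

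The IgE receptor chains differed from each other. Ms4a2, the beta chain, was between 215 and 778 CPM in all codes but EosP (63.7 CPM). Fcer1a, the IgE-binding alpha chain, was at 192 CPM in Eos/Bas4, 125 CPM in Bas1, 63.0 and 29.8 CPM at E16.5, 59.0 CPM in Eos/Bas3, 15.7 CPM in Eos/Bas2, 4.23 CPM in Bas2 and 0.540 CPM in EosP. In the adult library the other HPs held 0.0526 CPM of Fcer1a, which made it the leading gene of Eos/Bas4. Fcer1g, the signalling gamma chain, was highest in Bas1 (1840.0 CPM) and lowest in EosP (217 CPM). Lat2, an adaptor downstream of the receptor, ran from 6.48 CPM in EosP to 482 CPM in Bas1.

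After thinning each cell to 1000 UMIs, a Prg2 UMI was found in 94.3% of EosP cells (88.1 to 97.9), 21.2% of Eos/Bas2 cells (15.0 to 28.4) and 13.1% of Eos/Bas4 cells (8.52 to 19.1). Bcell codes of the same libraries gave 0.258%, 1.32% and 3.38%, with median depths of 13862, 22806 and 2229.5 UMIs against 15901, 36139 and 7748 UMIs. In the other codes the Prg2 share was 0% to 5.00%, and without thinning the 3 shares were 100%, 30.1% and 18.3%. A Mcpt8 UMI was found in 54.3% of Eos/Bas4 cells, in 30.4% to 41.7% of the cells of the other codes and in 7 of 106 EosP cells, against at most 0.966% in Bcell codes. The high Prg2 level of Eos/Bas2 and Eos/Bas4 was thus carried by a minority of their cells.

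To describe that minority, each cell was placed in a class by 2 sums, Prg2 with Prg3 and Epx for eosinophil granule transcripts and Mcpt8 with Prss34 for basophil proteases, each cut at 1 UMI per 1000 UMIs of the cell. The cut was chosen after the values were seen and divides a range, not cell types. Of the 1407 cells 149 (10.6%) passed for eosinophil granule transcripts alone, 483 (34.3%) for basophil proteases alone, 17 (1.21%) for both and 758 (53.9%) for neither. Few cells lay near the eosinophil cut, with at most 3 cells of any code between 0.5 and 2 UMIs per 1000. More lay near the protease cut, from 3 cells in the first E16.5 library to 56 in Bas1 and 65 in Bas2.

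Eos/Bas2 split into 31 eosinophil granule cells, 69 basophil protease cells, 2 cells with both and 54 with neither. Adult Eos/Bas4 split into 14, 84, 7 and 70. These 2 codes therefore held both programmes, mostly in different cells of the same library. Without the 37 Eos/Bas2 cells whose barcodes recurred, 27 eosinophil granule and 61 basophil protease cells of that code were left. EosP held 99 eosinophil granule cells and 7 with both, with a lowest value of 1.56, a median of 25.2 and a highest value of 108 granule UMIs per 1000. Bas1 (78 of 273), Eos/Bas3 (26 of 80) and both E16.5 libraries (6 of 18 and 21 of 79) had basophil protease cells and no eosinophil granule cell. Prss34, part of the protease sum, was also held by mast cell codes at E16.5 and later, as given above. In the second E16.5 library 13 of the 79 cells lay near the protease cut. Bas2 had 199 basophil protease cells among 520, with 5 eosinophil granule cells and 1 with both, although its name does not mention eosinophils. Doublets can put both sums into 1 barcode, no doublet caller was run, and their part in the 17 cells was not tested.

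**Figure D3:**
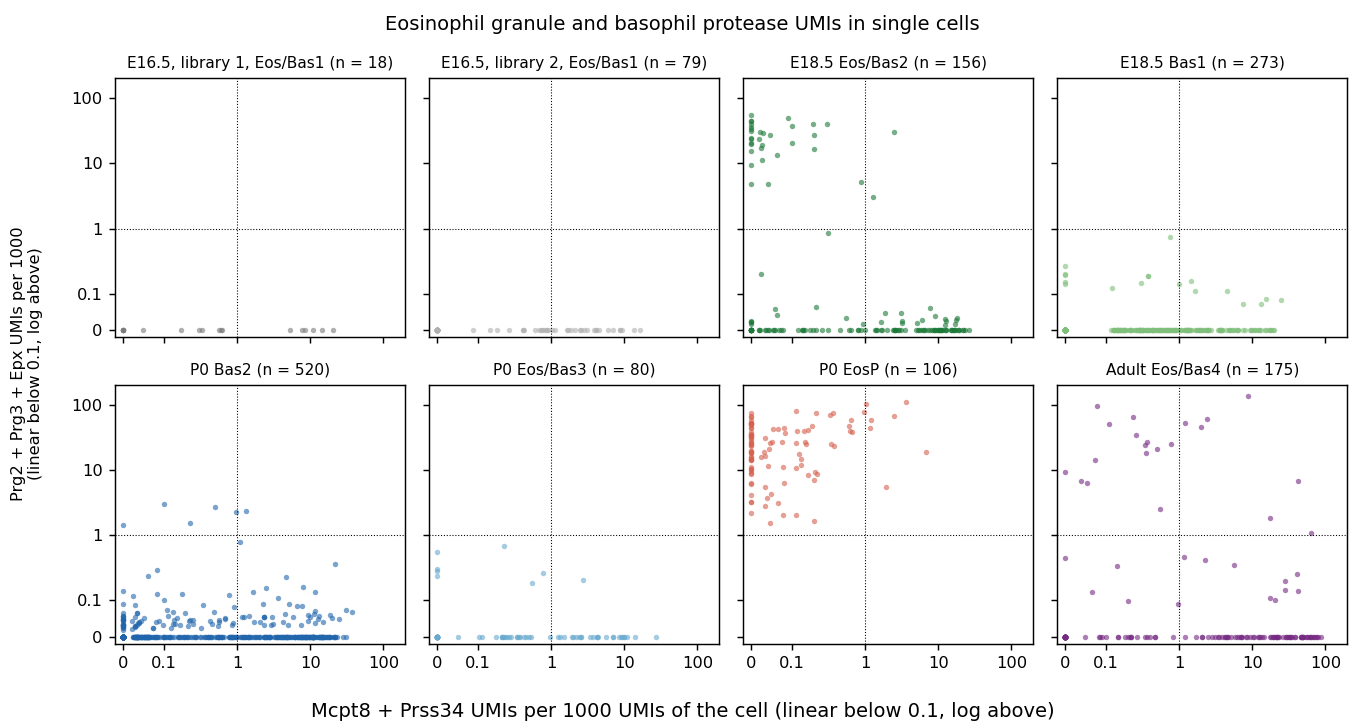
Each point is 1 cell, by its Mcpt8 and Prss34 UMIs per 1000 UMIs (x axis) and its Prg2, Prg3 and Epx UMIs per 1000 UMIs (y axis), both axes linear below 0.1 and log above, in one panel per library and code. Dotted lines mark 1 per 1000. Eos/Bas2 and Eos/Bas4 spread along both axes, EosP lies high on the y axis, and the E16.5, Bas1 and Eos/Bas3 panels have no point in the upper area.

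The eosinophil granule cells of E18.5, P0 and adult had similar levels of several genes that the class did not use. Cebpe stood at 730.4, 652 and 554 CPM in the E18.5, P0 and adult cells, Il5ra at 61.4, 64.5 and 85.6 CPM and Mpo, the myeloperoxidase of early granulocytes, at 4858, 4759 and 4768 CPM. Gata2, which basophils and mast cells retain, was at 26.9, 24.3 and 40.0 CPM. Genes that differed 4-fold in CPM were counted among those with at least 50 UMIs in the set where they were higher. In a deeper set 50 UMIs stand for a lower CPM, which admits more genes higher there, so the split by direction is also given at an equal minimum, the CPM of 50 UMIs in the shallower set. Between the E18.5 and the P0 cells 9 of 3852 genes (0.234%) differed, 1 higher at E18.5 (0.026%) and 8 higher at P0 (0.208%), or 1 and 4 at the equal minimum, and 10 differed without the cells of recurring barcodes. Between the adult and the P0 cells 121 of 3343 did (3.62%), 6 higher in the adult (0.179%) and 115 higher at P0 (3.44%), including Ear6 at 182 against 28.5 CPM at P0 and in the adult. The 14 adult cells held 175138 UMIs and the P0 cells 1767898, so that the minimum was 285 CPM against 28.3 CPM. At the equal minimum 6 of 502 genes were higher in the adult and 2 at P0, which turns the split.

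Basophil protease cells of different codes differed in several named genes. The Mcpt8 level that defined them was 11546 CPM in the adult, 5887 CPM at E16.5, and between 3211 and 4518 CPM in the other codes. Ctsg, cathepsin G, was at 3098 CPM in the adult cells, 2695 CPM in those of Bas2, 2267 CPM in those of Eos/Bas2, 619.5 CPM at E16.5, 283 CPM in Eos/Bas3 and 63.7 CPM in Bas1. Ifitm1 ran the other way, with 20588 CPM in Bas1, 14370.2 CPM at E16.5, 13077 CPM in Eos/Bas3, 4714 CPM in Eos/Bas2, 3619.7 CPM in Bas2 and 908 CPM in the adult. Fcer1a was highest in the adult cells (360.4 CPM) and lowest in those of Bas2 (12.2 CPM). Between the basophil protease cells of Bas2 and those of Eos/Bas2 3 of 5790 genes (0.0518%) differed 4-fold (1 at the equal minimum, 8 without the cells of recurring barcodes), and between those of the adult and of Bas2 107 of 4591 did (2.33%), 35 higher in the adult (0.762%) and 72 in Bas2 (1.57%). At the equal minimum these were 35 and 17, which turns the split. Among genes of at least 100 CPM the 5 largest ratios towards the adult were those of Lars2 and the neutrophil transcripts Ngp, Camp, S100a9 and S100a8, with S100a9 at 1865 against 10.1 CPM and S100a8 at 1507 against 17.0 CPM. The adult Bcell codes held 2137 CPM of S100a8. The source of these transcripts was not tested. Within Eos/Bas2 its eosinophil granule cells differed from its basophil protease cells in 202 of 3979 genes (5.08%). Of these 30 were higher in the former (0.754%) and 172 in the latter (4.32%), among them Ccl3 at 3.23 against 466 CPM. At the equal minimum 30 and 101 were. Without the cells of recurring barcodes 202 differed in all, 180 of them the same. The counts include Prg2, Prg3, Epx, Mcpt8 and Prss34, which defined the classes and so differ by construction.

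The cells with neither sum also held Ms4a2, the IgE receptor chain that basophils share with mast cells. Ms4a2 was at 519 CPM in those of the adult, 516 CPM in Bas1, 351 CPM in Bas2, 345 CPM in Eos/Bas2, 221 CPM at E16.5 and 219.9 CPM in Eos/Bas3. Cd200r3 divided them, with 889 CPM in Bas1 and 505 CPM in Eos/Bas3 against 16.0 CPM in Bas2 and 22.4 CPM in Eos/Bas2. Gzmb, granzyme B, was at 665 CPM in those of E16.5 and 270.4 CPM in those of the adult, and at most at 13.1 CPM in the others. The median depth of cells with neither sum was 49092.5 UMIs in Eos/Bas2 and 25083 in Bas2. It was 12958 at E16.5, 7045 in the adult, 6149 in Bas1 and 4268.5 in Eos/Bas3. These levels include the cells of recurring barcodes.

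Comparisons between codes counted genes in the same way. The clusters had been made from these genes, so the counts are descriptions. Between Eos/Bas2 and Bas1 1558 of 7161 genes (21.8%) differed, 1072 higher in Eos/Bas2 (15.0% of genes tested) and 486 higher in Bas1 (6.79%). Eos/Bas2 held 5606830 UMIs and Bas1 1862457, and at the equal minimum of 26.8 CPM 677 and 486 of 5481 genes were higher in each. Without the cells of recurring barcodes 1233 genes differed, 1213 of them among the 1558. All 6 eosinophil granule genes, all 8 granulocyte progenitor genes and 12 of 13 proliferation genes were higher in Eos/Bas2, and the last 2 lists had median log2 ratios of 4.83 and 3.22 against 0.46 over all genes tested. Mpo stood at 2222 against 67.7 CPM and Myb, a factor of progenitors, at 389.5 against 11.8 CPM.

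The genes higher in Bas1 included secreted factors, receptors and adhesion molecules. Against 6.79% of all genes tested, or 8.87% at the equal minimum, 10 of the 11 cytokine and chemokine genes tested were higher there, as were 12 of 15 adhesion and homing genes, 8 of 14 cytokine receptors and 7 of 12 basophil markers (1 of the 12, Csrp3, was higher in Eos/Bas2). Itgb1, integrin beta 1, stood at 812 against 141 CPM, and Ccr2, a chemokine receptor, at 645 against 33.7 CPM. Itga4, integrin alpha 4, did not go with them and was at 80.0 CPM in Bas1 and 204 CPM in Eos/Bas2. Kit transcripts were at 15.6 CPM in Bas1, the lowest of all codes, against 66.9 CPM in Eos/Bas2. Its leading genes against the other cells of the library were Wdr95 (433 against 1.26 CPM), Cldn1, Cdh1 and Lilr4b.

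At P0 Bas2 and Eos/Bas3 were compared in the same way. Of 6123 genes 304 (4.96%) differed, 169 higher in Bas2 (2.76%) and 135 higher in Eos/Bas3 (2.2%). At the equal minimum 15 (0.656%) and 135 (5.91%) of 2285 genes were, which turns the split. In Eos/Bas3 6 of 10 cytokine genes, 6 of 11 adhesion genes and 4 of 10 basophil markers were higher, and in Bas2 4 of 8 granulocyte progenitor genes and 1 basophil marker, Csrp3. None of the 13 proliferation genes passed 4-fold, and their median log2 ratio was 0.81 against 0.43 over all genes. Wdr95 was again among the leading genes of Eos/Bas3 (164 against 0.276 CPM in the other cells of the library), with Cdh1, Ccl6 and Lilr4b.

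EosP differed from Bas2 in 160 of 6831 genes (2.34%), 114 higher in Bas2 (1.67%) and 46 higher in EosP (0.673%). At the equal minimum 32 and 46 were, which turns the split. All 6 eosinophil granule genes were higher in EosP, with a median log2 ratio of -7.97 for Bas2 over EosP, and 9 of 12 basophil markers were higher in Bas2, with a median of 3.05 against 0.12 over all genes. Gata2 was at 231 CPM in Bas2 and 31.3 CPM in EosP. None of the 13 proliferation genes passed 4-fold. Between Eos/Bas3 and EosP 319 of 4052 genes (7.87%) differed, and 8 of 9 basophil markers, 9 of 10 cytokine genes and 10 of 10 immediate early genes were higher in Eos/Bas3 (4.49% of genes tested were). At the equal minimum 182 of 2329 genes were higher in Eos/Bas3 (7.81%) and 57 in EosP (2.45%).

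Across stages the closest pair was Eos/Bas2 of E18.5 and Bas2 of P0. Over 7385 genes with at least 20 CPM in some code, Pearson's r of log2(CPM + 10) was 0.986, against 0.707 between Eos/Bas2 and Bas1 of the same library. These correlations are across genes, which are not independent replicates. Only 21 of 8487 genes (0.247%) differed 4-fold, 8 higher in Eos/Bas2 (0.0943%) and 13 higher in Bas2 (0.153%), or 8 and 5 at the equal minimum, which turns the split. Without the cells of recurring barcodes 24 differed. Among the 8 were all 6 eosinophil granule genes and Cebpe, and none of the 12 basophil markers, 13 proliferation genes or 8 granulocyte progenitor genes passed 4-fold either way. Most eosinophil granule cells of P0 carried the code EosP, from which Eos/Bas2 differed in 120 of 6285 genes (1.91%), 87 higher in Eos/Bas2 (1.38%), among them 9 of 12 basophil markers, and 33 higher in EosP (0.525%), among them 4 of 6 eosinophil granule genes. At the equal minimum these counts were 38 and 33, and without the cells of recurring barcodes 101 genes differed, 84 of them among the 120.

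Bas1 of E18.5 and Eos/Bas3 of P0 shared 5 of their 10 leading genes (Wdr95, Cdh1, Lilr4b, Sytl3 and Alox15), with r of 0.898. Of 3602 genes 113 (3.14%) differed, 21 higher in Bas1 (0.583%) and 92 higher in Eos/Bas3 (2.55%), or 4 and 92 at the equal minimum. Eos/Bas3 and Eos/Bas1 of E16.5 had r of 0.913 and differed in 78 of 3548 genes (2.2%), 40 higher at E16.5 (1.13%) and 38 higher in Eos/Bas3 (1.07%), or 18 and 38 at the equal minimum, which turns the split. Without the cells of recurring barcodes 84 genes differed. Eos/Bas1 was as close to Bas2, with r of 0.914, and its 2 libraries differed in this. The first had r of 0.888 with Eos/Bas3 and 0.842 with Bas2, and the second 0.898 and 0.918. Eos/Bas3 and Bas2 had r of 0.880. Between Bas1 and Eos/Bas3 none of 11 basophil markers and none of 11 cytokine genes passed 4-fold, while 6 of 9 proliferation genes and 4 of 5 granulocyte progenitor genes were higher in Eos/Bas3. Summed levels weight cells by depth, and Eos/Bas3 cells ran from 1800 to 45682 UMIs, with a median of 5040. Whether a few deep cells carried these levels was not tested. Ctla2a was at 2.68 CPM in Bas1 and 255 CPM in Eos/Bas3, and Cd34, an antigen of progenitors, at 2.15 and 125 CPM. The codes named Eos/Bas at 4 stages thus did not hold the same kinds of cell: Eos/Bas2 and Eos/Bas4 held eosinophil granule cells, and Eos/Bas1 and Eos/Bas3 did not.

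**Figure D4:**
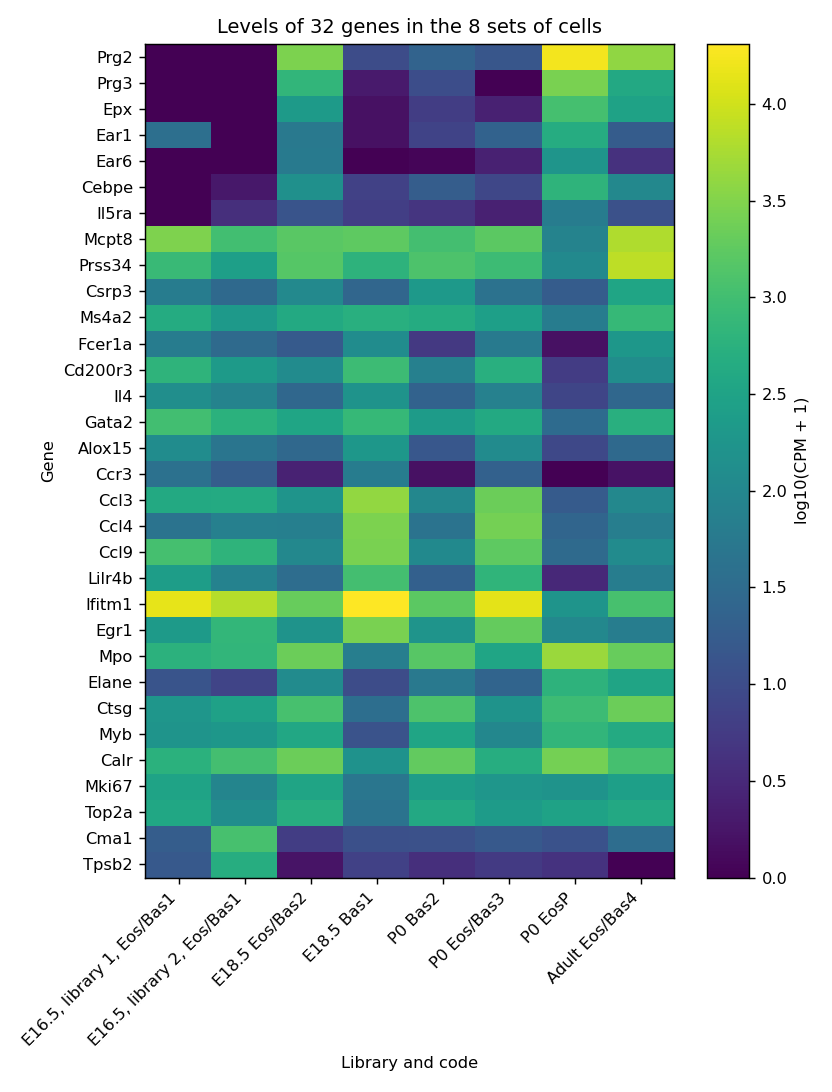
Levels of 32 genes, as log10(CPM + 1), in the 8 sets of library and code, darker for low and brighter for high. Bas1 and Eos/Bas3 are bright for Ccl3, Ccl4, Lilr4b and Egr1, Eos/Bas2 and Bas2 for Mpo, Ctsg and Calr, and EosP for the granule genes in the top rows.

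The 2 E16.5 libraries differed in 41 of 2313 genes (1.77%), 6 higher in the first (0.259%) and 35 in the second (1.51%), or 6 and 10 at the equal minimum. With 18 cells in the first library the counts were small, and leaving out its cells with recurring barcodes gave 174 genes, of which 17 were among the 41. Against Bas2 of P0 both libraries together differed in 242 of 6467 genes (3.74%), 94 higher at E16.5 (1.45%) and 148 higher at P0 (2.29%), or 94 and 39 at the equal minimum, which turns the split. At E16.5 5 of 12 basophil markers were higher, among them Cd200r3, and at P0 1 of the 12, Csrp3, and 4 of 8 granulocyte progenitor genes. Without the cells of recurring barcodes 251 genes differed, 200 of them among the 242, and without the second E16.5 library 297 did, 69 of them among the 242. Gzmb stood at 547 CPM at E16.5 and 0.747 CPM in Bas2, Hgf, hepatocyte growth factor, at 204 and 54.0 CPM in the 2 E16.5 libraries, and Igf2bp1, an RNA-binding protein of fetal cells, at 36.0 and 27.0 CPM against at most 1.25 CPM in every later code.

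The adult code differed from Eos/Bas2 in 125 of 6290 genes (1.99%), 73 higher in Eos/Bas2 (1.16%) and 52 higher in the adult (0.827%), or 20 and 52 at the equal minimum, which turns the split. Without the cells of recurring barcodes 102 differed, 91 of them among the 125. Of 4 fetal programme genes tested 3 were higher in Eos/Bas2, among them Igf2bp3 at 63.1 against 14.5 CPM and Hmga2 at 41.7 against 8.18 CPM. Of 11 basophil markers 2 were higher in the adult, Prss34 and Fcer1a, and 2 of 6 eosinophil granule genes, Ear2 and Ear6, were higher in Eos/Bas2. Mt1, a metallothionein, was at 419.7 CPM in Eos/Bas2 and 51.0 CPM in the adult. All 5 neutrophil genes tested were higher in the adult. The 8 genes of that list summed to 2876 CPM in Eos/Bas4, 4930.4 CPM in adult Bcell codes and 349485 CPM in adult neutrophils, and the median cell of these Bcell codes had 2229.5 UMIs against 7748 in Eos/Bas4. The part of free RNA in these values was not tested.

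Cytokine and chemokine genes were highest in Bas1 and Eos/Bas3. The 16 measured genes summed to 13557 CPM in Bas1 and 9465 CPM in Eos/Bas3, 3632 and 1916 CPM at E16.5, and 909.6, 750.2, 395 and 876 CPM in Eos/Bas2, Bas2, EosP and Eos/Bas4. The inflammatory chemokines Ccl3 and Ccl4 stood at 4124 and 2886 CPM in Bas1 and at 2197 and 2576 CPM in Eos/Bas3, and at most at 424 and 75.4 CPM elsewhere. Il4, the cytokine basophils are best known for, was at 162 CPM in Bas1, 135 and 82.9 CPM at E16.5, 76.6 CPM in Eos/Bas3 and at most 26.6 CPM in the other codes. Il13 was at 42.0 CPM in the first E16.5 library and 24.7 CPM in Bas1. Csf1 was at 677 CPM in Bas1 and Il6 at 316 CPM, the highest of all codes for each. Il3 and Il5 were not among the genes of the matrix.

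Bas1 and Eos/Bas3, the codes highest in cytokine transcripts, were also highest in immediate early genes, which handling of cells can induce. The 13 genes summed to 15100.5 CPM in Bas1, 10803 CPM in Eos/Bas3 and 5338 CPM in the second E16.5 library. In the first E16.5 library and the other codes they summed to between 1293 and 2242 CPM. The E16.5 libraries thus did not follow the pattern: the first had the higher cytokine sum and the lower immediate early sum. All other cells of the libraries gave 478 to 1283 CPM, and mast cell codes of E18.5 and P0 gave 2609 and 3871 CPM. Egr1 alone was at 2813 CPM in Bas1. The part of handling in the cytokine levels was not tested.

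**Figure D5:**
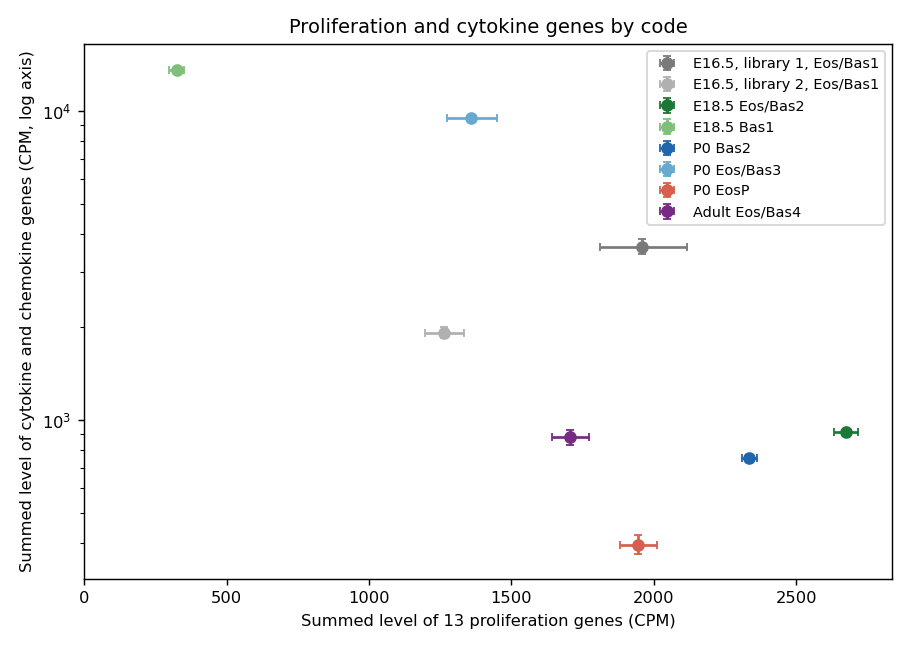
Summed level of 13 proliferation genes (x axis, CPM) and of the measured cytokine and chemokine genes (y axis, CPM, log axis) in each library and code, with 95% exact Poisson intervals. Bas1 lies at 325 and 13557 CPM, Eos/Bas3 at 1359 and 9465 CPM, and Eos/Bas2 and Bas2 lie to the right at 2675 and 2336 CPM and low on the y axis.

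Of the cytokine receptors 8 of 14 were 4-fold higher in Bas1 than in Eos/Bas2, against 6.79% of all genes tested, or 8.87% at the equal minimum. In Eos/Bas3 3 of 8 were higher than in Bas2, against 2.2% of all genes tested, or 5.91% at the equal minimum. Il5ra was highest in EosP. Csf2rb, the beta chain common to the IL-3, IL-5 and GM-CSF receptors, was at 1063 CPM in Bas1, 657 CPM in the first E16.5 library, 421 CPM in Eos/Bas3 and 82.6 to 198 CPM in the rest. Il1rl1, the IL-33 receptor, was at 558 CPM in Bas1, 282 and 156 CPM at E16.5, 255 CPM in Eos/Bas3 and 23.8 CPM in EosP. Il7r was at 143 CPM in Bas1 and 137 CPM in Eos/Bas3 against at most 8.92 CPM in the other codes after E16.5. These 3 receptors were lowest in EosP.

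Lipid mediator genes divided the lineage as well. Alox5ap, which presents arachidonic acid to 5-lipoxygenase, was at 4077 CPM in Bas1, 2168 and 2146 CPM in Eos/Bas3 and the first E16.5 library, and 282 CPM in EosP. Ptgs2, the inducible cyclooxygenase, was at 209 CPM in Bas1 and at most 48.6 CPM elsewhere. Lta4h, leukotriene A4 hydrolase, was instead highest in EosP at 334 CPM and lowest in Bas1 at 30.1 CPM. Ltc4s was at most at 4.41 CPM in any code.

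Among transcription factors Gata2 was lowest in EosP, where Cebpe was highest. Gata2 was at 1009 and 567 CPM at E16.5, 775 CPM in Bas1, 532 CPM in Eos/Bas4, 409.7 CPM in Eos/Bas3, 341 CPM in Eos/Bas2, 231 CPM in Bas2 and 31.3 CPM in EosP. Myb was highest in EosP (675 CPM) and lowest in Bas1 (11.8 CPM). Lmo4 was between 752 and 1525 CPM in Eos/Bas1, Eos/Bas2, Bas2 and Eos/Bas4, 337 CPM in EosP, and 159 and 149 CPM in Bas1 and Eos/Bas3. Id2, an inhibitor of basic helix-loop-helix factors, was at 312 and 185 CPM at E16.5, 245 CPM in Eos/Bas3 and 132 CPM in Bas1 against at most 34.0 CPM in the rest. Cebpa, needed in early granulocyte progenitors, was lowest in EosP at 18.9 CPM.

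The granule proteases shared with neutrophil progenitors were high in EosP, Eos/Bas2, Eos/Bas4 and Bas2. Mpo was at 4676 CPM in EosP, 2222 CPM in Eos/Bas2, 2040.5 CPM in Eos/Bas4, 1580.2 CPM in Bas2, 687 and 585 CPM at E16.5, 337 CPM in Eos/Bas3 and 67.7 CPM in Bas1. Elane, neutrophil elastase, was at 609 CPM in EosP, 328 CPM in Eos/Bas4 and 121 CPM in Eos/Bas2. Ctsg was highest in Eos/Bas4 at 2179 CPM and lowest in Bas1 at 34.9 CPM. The other HPs of the libraries also held these transcripts: the 8 granulocyte progenitor genes summed to 8761 CPM in EosP against 5954 CPM in all other P0 HPs, and to 6420.5 CPM in Eos/Bas4 against 10152 CPM in all other adult HPs.

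Transcripts of other cell types were checked in each code. The 11 mast cell markers summed to 1799 CPM in Eos/Bas1 of the second E16.5 library, against 1381 CPM in Bcell codes and 50219 CPM in mast cells of that library, and Cma1 stood at 1144 CPM against 1049 CPM in Bcell codes. In the first library the sum was 213 CPM, and in the later codes it was at most 88.1 CPM. Trbc1, a T cell receptor constant segment, stood at 372 and 367 CPM at E16.5 against 0 and 24.1 CPM in Bcell codes and 27.9 and 671 CPM in all other cells of the 2 libraries. Its source was not tested. Retnlg, a neutrophil transcript, stood at 108 CPM in Bas1 and 212 CPM in Eos/Bas3 while S100a8 was at 14.5 and 20.6 CPM there, and at 108800.0 and 102602 CPM in the neutrophil codes. Gzmb was also found in mast cell codes of E18.5 and P0, at 688 and 1077 CPM.

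Surface proteins were read from antibody counts, which the clusters had not used. CD48, Ly6AE (Sca-1), CD150 and CD135 were read in every library. CD48, a receptor of most blood cells beyond the stem cell, had a median of 127.5 counts in Eos/Bas2 and 91 in Bas1 against 84 in other E18.5 cells. At P0 it was 101.5 in Bas2, 77.5 in Eos/Bas3 and 71 in EosP against 111 in other cells, and in the adult 148 in Eos/Bas4 against 102. In the 2 E16.5 libraries the medians were 103 and 6 counts against 76 and 7 in other cells. The sign of the E18.5 difference depended on the cells compared, since on a centred log-ratio scale it was 0.35 in Eos/Bas2 and 0.13 in Bas1 over all cells and -0.04 and -0.20 over cells of at least 1000 UMIs. Ly6AE medians were 1 or 2 counts in all codes. The larger panel of the second E16.5 library gave Eos/Bas1 a median of 12 counts for CD16and32, the low-affinity Fc gamma receptors, against 27 in mast cells and 1 in T cells, and 2 counts for CD90.2 against 77 in T cells. For IL33R, the protein of Il1rl1, the median was 1 count in Eos/Bas1, against 3 in mast cells and 1 in T cells.

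After E16.5 the lineage codes held most, not all, of the Prg2 and Mcpt8 transcripts of their libraries. Of the Prg2 UMIs, the codes held 0 of 87 in the second E16.5 library, while Eos/Bas2 held 94.8% at E18.5, EosP held 91.2% at P0, and adult Eos/Bas4 held 65.1%. Of the Mcpt8 UMIs, they held 60.6% and 41.2% at E16.5, then 88.7% at E18.5, 81.7% at P0 and finally 91.7%. Cells with at least 20 Mcpt8 UMIs outside the codes numbered 4, 3, 13, 20 and 3 from the first E16.5 library to the adult, and with at least 20 Prg2 UMIs 0, 2, 2, 12 and 15. An E18.5 code named Mast/Bas was outside the rule. Its 41 cells had a median of 534 UMIs, 22788 CPM of the mast cell chymase Cma1 and 2 Mcpt8 UMIs in all.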

How the data were processed

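RNA and antibody tags of Lin-Kit+ BM cells were sequenced in 5 HP libraries. Per the submitters' processing notes, reads were processed with Cell Ranger 3.1.0, R 4.0 and Seurat 3.1.5 on build mm10. The authors deposited raw UMI counts per gene and cell, raw antibody counts, the mitochondrial share of each cell as a fraction, cell cycle scores and a cluster code. The authors kept cells of at least 300 UMIs, under 7.5% mitochondrial UMIs and under the 98th percentile of both UMIs and genes per cell, and genes in at least 30 cells. Those percentiles are the doublet filter known, and no doublet caller was run.

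Counts were summed per library and code with Python 3.11.15, numpy 2.4.6, scipy 1.17.1 and pandas 2.3.3 and given as CPM with 95% intervals. Groups were taken from the labels. Since a stage is 1 or 2 libraries, no test was made and no p-value is given. Fold comparisons used genes with at least 50 UMIs in the higher code, with genes at 0 bounded at 3 counts. The rule was tried on simulated Poisson counts at the depths of Bas2 and EosP, where only genes of high count were changed. Changed genes near the minimum, shallower sets and spread between cells were not simulated. The members and the 27 gene lists were chosen with earlier results of these data known. The text names genes of these lists and, for each pair of codes, the 5 largest ratios each way among genes of at least 100 CPM, and the 10 leading genes of each code. Alternatives were an equal CPM minimum for both sides of a fold comparison (chosen after seeing the data), the UMI minimum, all deposited cells, markers in place of codes, thinning, the fold and its minimum, TMM factors (edgeR 4.0.16 in R 4.3.3), other denominators, leaving out either E16.5 library, cells with the most UMIs and cells with recurring barcodes. The codes are clusters the authors made from these genes. Stromal libraries were not used here, except that their barcodes counted towards recurrence.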

Additional observations from a re-analysis of the deposited data

Results flagged for a closer look

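The second E16.5 library held 2 cells with many eosinophil granule UMIs in codes outside the lineage, above the 0 Prg2 UMIs of the 79 Eos/Bas1 cells and of the Bcell1 cells there. A cell of code Mast2ii with 1699 UMIs in all had 57 Prg2, 10 Prg3, 4 Epx and 2 Cebpe UMIs, with 1 UMI of the mast cell chymase Cma1. A cell of code Neu1 with 21334 UMIs had 22 Prg2, 4 Prg3 and 15 Cebpe UMIs. In the other 8 cells of the library with Prg2 the count was 1 UMI each, and the first E16.5 library had none, which allows up to 0.215 CPM over all its HP cells.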

How the results depend on the processing

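No paired analysis was possible because replicate numbers of the mRNA libraries occur at E16.5 only. Of the share, class, fold and antibody results, 86 alternative values stayed the same, 54 moved and 2, both CD48 differences, reversed. Splits of a fold count by direction are not among these values, and 6 of 11 between codes turned at the equal minimum. The E16.5 share of 1.84% ranged from 1.67% to 3.31% when either library was left out. It was 7.37% when cells of any code, mast cell codes included, with at least 2 UMIs of Mcpt8 or Prg2 were counted. That count gave 14.9% at P0 and 4.95% in the adult. Over all deposited cells the share was 12.4% at E18.5 and 2.94% in the adult. The 17 cells with both sums became 29 at a cut of 0.5 and 7 at a cut of 2 UMIs per 1000. The CD48 differences at E18.5 turned from 0.35 to -0.040 (Eos/Bas2) and from 0.13 to -0.20 (Bas1) over cells of at least 1000 UMIs.

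Counts of genes past a fold moved most, since a lower minimum and a smaller fold admit more genes. With at least 10 UMIs, no minimum or a 2-fold limit, the counts were 252, 485 and 368 between the E16.5 libraries, 499, 1477 and 1294 for Bas2 against Eos/Bas3, and 300, 760 and 591 for Bas2 against EosP. They were 753, 1131 and 956 for Eos/Bas3 against EosP, 476, 1254 and 1076 for E16.5 against Bas2, and 148, 347 and 156 for Eos/Bas2 against Bas2. They were 537, 1070 and 673 for Bas1 against Eos/Bas3, 303, 588 and 469 for Eos/Bas2 against EosP, 373, 863 and 970 for Eos/Bas2 against Eos/Bas4, and 372, 692 and 441 for E16.5 against Eos/Bas3. For Eos/Bas2 against Bas1 they were 2622 with no minimum and 3634 at 2-fold. At an equal CPM minimum the counts were 16 between the E16.5 libraries, 150 for Bas2 against Eos/Bas3, 78 for Bas2 against EosP, 133 for E16.5 against Bas2, 13 for Eos/Bas2 against Bas2, 71 for Eos/Bas2 against EosP and 72 for Eos/Bas2 against Eos/Bas4, since fewer genes of the deeper code were tested. TMM factors moved none of these counts by over 1.5 times. Leaving out lineage cells with recurring barcodes, chosen after seeing the data, gave 174 genes between the E16.5 libraries, 17 of them among the 41, and 8 between the basophil protease cells of Bas2 and Eos/Bas2, which numbered 3 with all cells. Between classes of cells the equal minimum gave 5 genes for the eosinophil granule cells of Eos/Bas2 against EosP and 8 for those of the adult against EosP. It gave 1 for the basophil protease cells of Bas2 against Eos/Bas2, 52 for those of the adult against Bas2, and 131 within Eos/Bas2.

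Of the values of single markers 81 stayed the same and 78 moved, among them 12 levels and 20 shares of cells by over 1.5 times. Without mitochondrial and ribosomal protein genes in the denominator, Mcpt8 was at 10469 CPM and Prg2 at 6781 CPM in Eos/Bas4, and Mcpt8 at 1589 CPM in Bas2. The first E16.5 library alone gave 2993 CPM of Mcpt8, from 18 cells.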
